A study of Homo sapiens with 20 samples.

Results

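The SREBP target genes of sterol and fatty acid synthesis were followed across all 7 sample groups of a study of SUM159PT cells. The group of genes was a list of 35 symbols of these pathways. Each was found in the count table through its Entrez identifier, 35 of the 27864 identifiers counted. The list was divided into 2 regulators (SREBF1 and SREBF2), a sterol arm of 20 genes and a fatty acid arm of 13 genes. All 35 passed the filter on low counts, among 16323 genes in all, so every count given for the 35 covers the whole list. It does not hold every gene of either pathway.

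SREBF1 and SREBF2 encode the sterol regulatory element-binding proteins, transcription factors made as precursors in the membrane of the endoplasmic reticulum. When membrane cholesterol is low the escort protein SCAP carries them to the Golgi, where proteases release the part that enters the nucleus, and when it is high INSIG proteins hold SCAP back. SREBP-2, from SREBF2, mainly drives genes of cholesterol synthesis, and SREBP-1, from SREBF1, mainly those of fatty acid synthesis, with much overlap. Cultured cells are known to lower these genes when lipoprotein cholesterol is supplied and to raise them when it is withdrawn.

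SUM159PT is a mesenchymal triple-negative human breast cancer line, and all libraries came from it. Parental cells (wt) and 2 pools with a targeted NNMT gene were compared. NNMT encodes nicotinamide N-methyltransferase. In the pool KOs, 1 guide RNA was aimed at the transcription start, and in the pool KOd, 2 guides were used to delete exon 1. Each pool mixed several clones, so pool differences also carry what those clones shared. The medium of adherent cells (2D) was Ham's F12, to which 5 µg/ml insulin, 1 µg/ml hydrocortisone and fetal calf serum at 5% were added. Spheres (3D) were secondary tumorspheres, grown in suspension for 2 rounds of 6 days in DMEM:F12 with B27 supplement and 20 ng/ml each of EGF and basic FGF. A further wt group was kept adherent but moved from the standard medium to the sphere medium before harvest, and is called wt in tumorsphere medium here. The labels name serum for the 2D medium alone. Each group had 3 libraries, marked A to C, except wt in tumorsphere medium with 2 (A and B). Whether replicates came from cultures of their own is not in the labels, and every p-value rests on differences among these libraries, which may be technical. RNA of spheres was extracted with another kit than RNA of adherent cells, so kit and culture cannot be told apart.

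Library totals ran from 26396964 to 43744817 reads, and the labelled KOs libraries were the deepest, at 37316513 or more against at most 32016875 elsewhere. Levels are given as CPM, read counts divided by the scaled library size and put on a common scale, and levels are compared between genes only as CPM per kilobase of the deposited gene length. NNMT itself was at 120.4, 128 and 102 CPM in wt 2D, 130.1, 113 and 76.0 in labelled KOs 2D and 4.39, 4.64 and 4.62 in KOd 2D. In spheres it was at 85.7, 79.5 and 129.9 CPM in wt, 85.1, 82.9 and 86.4 in labelled KOs and 4.65, 5.18 and 5.64 in KOd, and in wt in tumorsphere medium at 226 and 247. Its mRNA was thus low in every KOd library and overlapped wt in those labelled KOs, which are called labelled KOs for that reason. The line's own markers VIM and CD44 summed to between 3551 and 6789 CPM, and ESR1, PGR, EPCAM and KRT20 together to at most 0.651 CPM. Of the markers of other cell types, ADIPOQ, CD3E, LYZ and CDH5 were at or near 0 in all libraries, and the 3 hepatocyte markers summed to at most 0.510 CPM. The endothelial sum, nearly all PECAM1, was higher in spheres, at 50.6 to 73.3 CPM in wt 3D against 1.92 to 3.69 in wt 2D. The leukocyte sum, nearly all CD68, was 97.8 to 110.2 CPM in wt in tumorsphere medium and 183 to 194 in labelled KOs 3D. In wt 2D it was 24.1 to 31.7. The 2 tested leukocyte genes went opposite ways. In wt in tumorsphere medium against wt 2D, 1 rose (1.93) and 1 fell (-2.40), where 15.6% of all genes rose and 16.4% fell. In labelled KOs 3D against wt 3D, 1 rose (3.49) and 1 fell (-2.95), where 27.8% of all genes rose and 28.5% fell. The adipocyte sum ran from 1.08 to 30.2 CPM with its top in labelled KOs 2D replicate A. It was 4.68 to 4.90 CPM in KOd 3D against 1.08 to 1.65 in wt 3D. Of its 3 tested genes 2 rose there and 0 fell, where 16.5% of all genes rose. The part of these markers in the results below was not tested. In bulk RNA, fewer cells of a kind and less RNA per cell cannot be told apart.

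Of the 20 libraries, 3 stood apart from their own replicates, and they did so in these genes. The median absolute log2 difference over all genes was 0.357 and 0.426 between labelled KOs 2D replicate A and its replicates B and C, against 0.191 between B and C. For wt 3D replicate C it was 0.260 and 0.282, against 0.108 between A and B, and for KOd 3D replicate C 0.196 with either of the others, against 0.117 between A and B. Pairs in the other groups lay between 0.073 and 0.160. In labelled KOs 2D replicate A, 19 of the 20 sterol-arm genes and 13 of 13 fatty acid genes were above the mean of B and C. The median difference was 2.04 on the log2 scale for the sterol arm and 0.81 for the fatty acid arm, against 0.03 over all genes tested. INSIG1 was 13.5-fold higher there than in B and C, HMGCS1 9.26-fold, MSMO1 7.75-fold and SCD 6.27-fold. TM7SF2 was 26.4-fold higher, from 198 reads in A against 6 and 3 in B and C. That fold is near the floor and depends on the prior count of 2 added to the reads before taking logs. PMVK was the sterol-arm gene that was lower in replicate A. The other 2 libraries lay on the opposite side. In wt 3D replicate C all 20 sterol-arm genes were below the mean of A and B, with a median of -0.63, and in KOd 3D replicate C 19 of 20 were, with a median of -0.73, PMVK being the exception. The fatty acid arm was lower by less, with medians of -0.25 and -0.24, and ACSL4 was higher in both libraries, at 1.39-fold and 1.42-fold. Counts of the 35 genes are therefore given with all 20 libraries and with these 3 left out, and values of single genes are from the fit of all 20 unless stated. The 3 were named from the same data, so the second fit shows how far results rest on them and is not independent evidence. Because they were picked for lying apart, leaving them out lowers the spread that the model estimates, in every comparison. Adjusted p values of the second fit therefore tend to be too small, and its counts of genes passed too high.

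**Figure D1:**
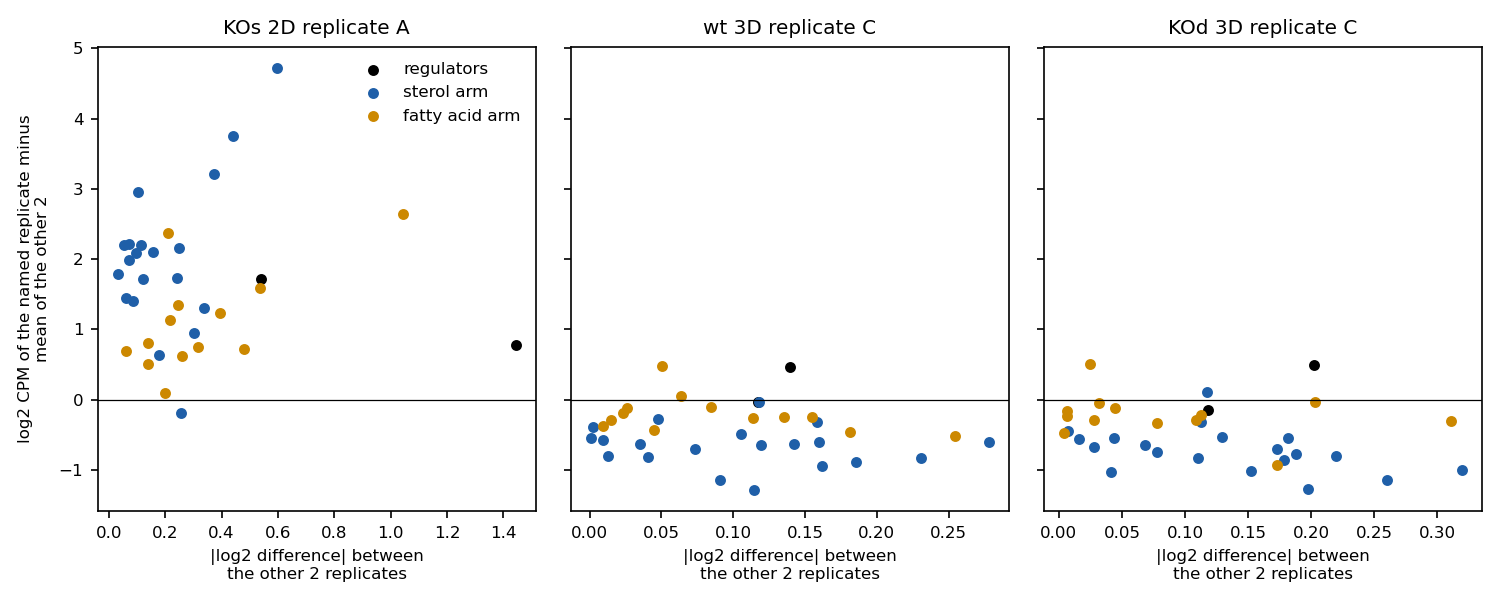
Distance of each member from its replicates in the 3 libraries that stood apart. Each point is 1 gene of the regulators (black), the sterol arm (blue) or the fatty acid arm (orange), the vertical axis is the log2 CPM of the named library minus the mean of the other 2 replicates, and the horizontal axis is the absolute log2 difference between those 2. Most sterol-arm points lie above 1 in labelled KOs 2D replicate A and below 0 in the replicates C of wt 3D and KOd 3D.

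The summed level of each arm gives the broad order of the groups. Summed over its 20 genes, the sterol arm stood at 557, 555 and 632 CPM per kilobase in wt 2D replicates A, B and C, and at 1117 and 1241 in wt in tumorsphere medium. In wt 3D the sums were 849, 861 and 524, with replicate C below all wt 2D libraries. Labelled KOs 2D gave 1622, 511 and 553 and labelled KOs 3D 904, 909 and 906. KOd 2D was the lowest group, at 375, 355 and 339, and KOd 3D gave 843, 915 and 533. All adherent wt cells in tumorsphere medium thus lay above every wt library in the standard medium, all KOd 2D libraries lay below every other library, and sphere libraries other than the replicates C of wt 3D and KOd 3D lay between 843 and 915 whatever the genotype.

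The fatty acid arm spanned a narrower range. Its 13 genes summed to 589, 579 and 595 CPM per kilobase in wt 2D, 929.6 and 1005 in wt in tumorsphere medium and 569, 571 and 486 in wt 3D. The sums were 1069.8, 490.1 and 422 in labelled KOs 2D, 695, 689.5 and 674 in labelled KOs 3D, 547, 500.0 and 495 in KOd 2D and 649, 644 and 599.9 in KOd 3D. Here wt spheres lay below adherent wt cells in either medium, while KOd spheres lay above adherent KOd cells. Labelled KOs 2D replicate A had the highest sum of both arms. Within the arms the levels were uneven. In wt 2D the sterol genes ran from 1.03 CPM per kilobase (TM7SF2) to 82.8 (FDPS), and the fatty acid genes from 0.389 (ACACB) to 139.6 (ACLY).

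**Figure D2:**
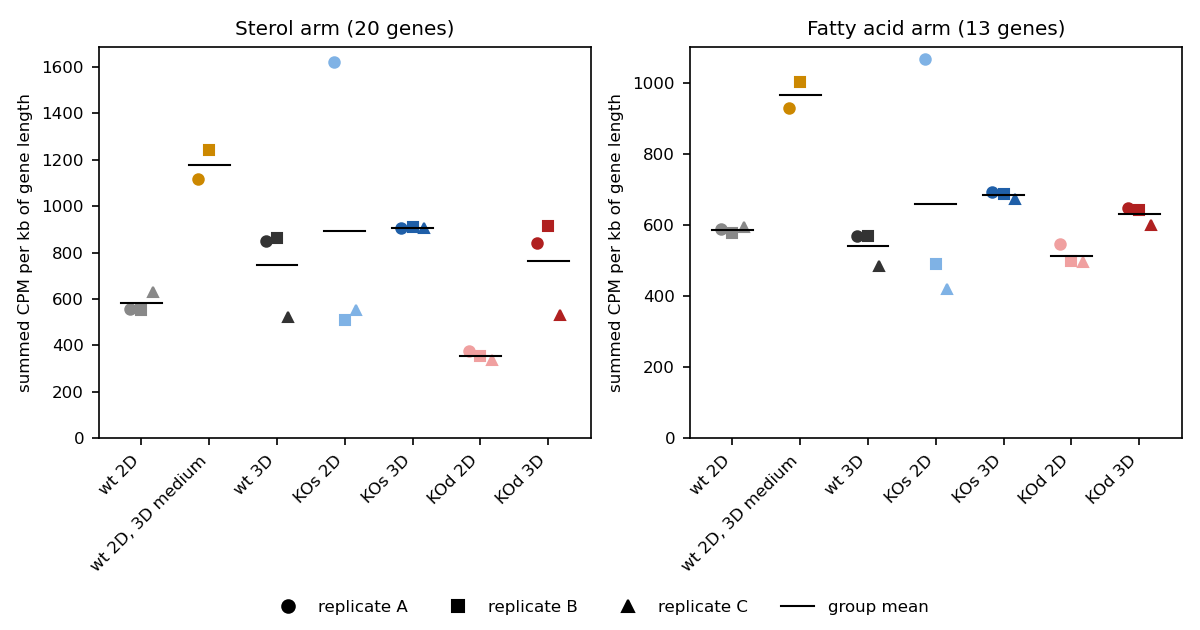
Summed level of the sterol arm (left, 20 genes) and the fatty acid arm (right, 13 genes) in each library, in CPM per kilobase of gene length on axes from 0. Symbols mark replicates A to C and black lines the group means, and "wt 2D, 3D medium" is wt in tumorsphere medium. The sterol sums of KOd 2D (339 to 375) lie below all others, those of wt in tumorsphere medium (1117 and 1241) above all but labelled KOs 2D replicate A (1622).

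The regulators differed from each other. SREBF2 (Entrez 6721, chr22:41833105-41907305, GRCh38.p14) was at 209.6, 219 and 235 CPM in wt 2D, 385 and 420.0 in wt in tumorsphere medium and 398, 367 and 374 in wt 3D. It was at 338, 124 and 85.0 CPM in labelled KOs 2D, 363, 350.2 and 364 in labelled KOs 3D, 183, 179 and 169 in KOd 2D and 332, 306 and 289 in KOd 3D. Within each genotype no sphere library overlapped the 2D libraries. SREBF2 rose in spheres by 0.78 ± 0.30 (log2 fold change ± SE, adjusted p = 0.0303, edgeR quasi-likelihood test with Benjamini-Hochberg adjustment over all genes tested, as for every adjusted p here) in wt, by 0.98 ± 0.30 in labelled KOs (adjusted p = 0.00856) and by 0.81 ± 0.30 in KOd (adjusted p = 0.0246). In wt in tumorsphere medium the difference was of like size, 0.86 ± 0.33, and did not pass, at an adjusted p of 0.0534. It passed with the 3 libraries left out (adjusted p = 9.88e-07), where the estimated spread is lowered by that choice.

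SREBF1 (Entrez 6720, chr17:17811334-17836986) was at 108, 129 and 109 CPM in wt 2D, 131 and 137 in wt in tumorsphere medium and 164, 148 and 214 in wt 3D. Its values were 149, 143 and 52.5 CPM in labelled KOs 2D, 205, 193 and 211 in labelled KOs 3D, 239, 235 and 213 in KOd 2D and 239.9, 209 and 315 in KOd 3D. In KOd 2D, where the sterol arm was lowest, SREBF1 was higher than in wt 2D with no overlap (log2 fold change 0.99 ± 0.26, adjusted p = 0.00463). It also rose in spheres of wt (log2 fold change 0.60 ± 0.26, adjusted p = 0.0495) and of labelled KOs (log2 fold change 0.82 ± 0.26, adjusted p = 0.00973), while KOd spheres did not pass (0.15 ± 0.26, adjusted p = 0.614). The wt call was lost without the 3 libraries, at 0.43 and an adjusted p of 0.0925. In both wt 3D and KOd 3D, the replicate C that was low in sterol genes was the highest of its group in SREBF1.

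INSIG1 and STARD4 stand for feedback and transport. INSIG1 retains SCAP in the endoplasmic reticulum and is itself an SREBP target. It was at 117, 117 and 132 CPM in wt 2D, 256 and 287 in wt in tumorsphere medium, 164, 173 and 104 in wt 3D, 382, 32.9 and 24.2 in labelled KOs 2D, 229.8, 232 and 219 in labelled KOs 3D, 40.0, 30.9 and 32.2 in KOd 2D and 227, 252 and 119 in KOd 3D. KOd 2D and the replicates B and C of labelled KOs 2D lay far below every other library. STARD4, a soluble carrier of cholesterol between membranes, was at 41.4, 44.2 and 40.3 CPM in wt 2D, 47.4 and 48.7 in wt in tumorsphere medium, 60.9, 67.2 and 41.2 in wt 3D, 31.8, 8.19 and 7.78 in labelled KOs 2D, 45.2, 48.9 and 46.7 in labelled KOs 3D, 29.9, 26.3 and 21.5 in KOd 2D and 67.6, 70.9 and 44.0 in KOd 3D. Adherent wt cells in either medium were close together in STARD4, in contrast to INSIG1, and all labelled KOs 2D libraries lay below all wt 2D libraries.

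**Figure D3:**
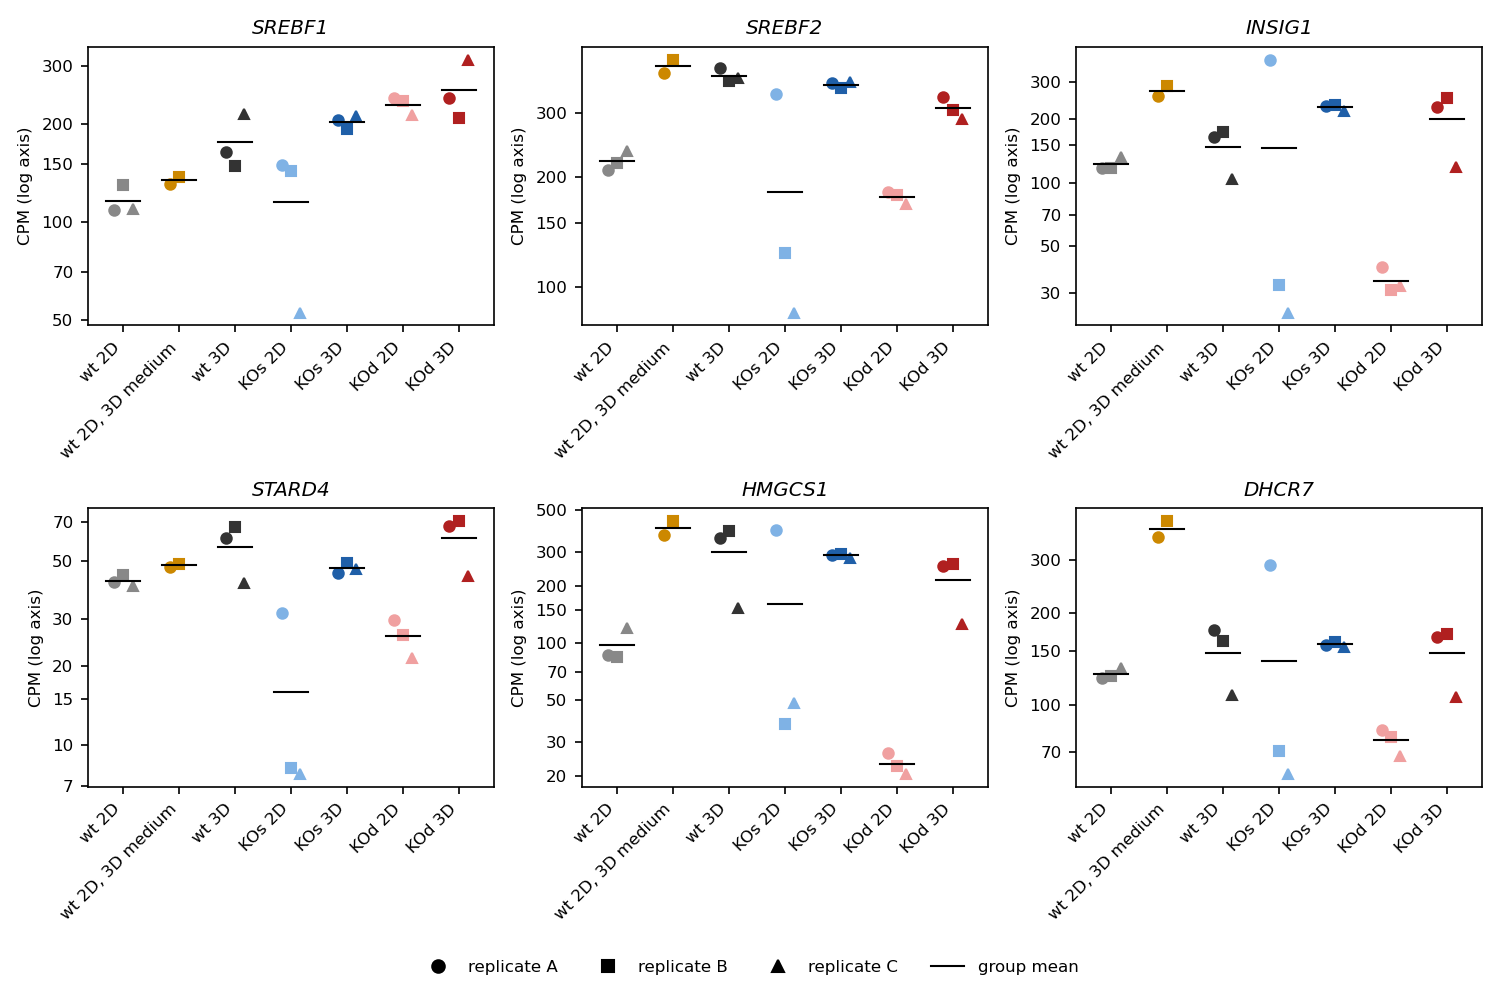
CPM of the 2 regulators, the feedback gene INSIG1, the carrier gene STARD4, and HMGCS1 and DHCR7 from an early and a late step of the sterol arm, for each library on log axes. Symbols mark replicates A to C and lines the group means. INSIG1 and HMGCS1 are lowest in KOd 2D and in replicates B and C of labelled KOs 2D, and SREBF1 is not low in KOd 2D.

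Promoter sequence was examined because the sterol-arm genes moved together in single libraries as well as between groups. RefSeq (GRCh38.p14) gave a promoter for 31 of the 35 genes, and none was matched for ACAT2, FDFT1, SQLE and FASN. The 250 bases in front of each start were searched on both strands for TCACNCCAC (the core of a sterol regulatory element), CCAAT (the box bound by NF-Y) and GGGCGG (the box bound by Sp1). A gene was counted if any of its windows held the letters, and 10 members had more than 1 window. CCAAT was found in 15 of 17 sterol-arm genes (88.2%) and 7 of 12 fatty acid genes (58.3%). The share was 41.2% over 12494 tested genes with a promoter. Per window, CCAAT was in 77.3% of 22 of the sterol arm and 40.9% of 22 of the fatty acid arm. Over 35097 windows of all genes, tested or not, the share was 32.0%. GGGCGG was found in 30 of 31 members (96.8%) against 70.2%. TCACNCCAC was found in 2 of 31 members (6.45%) against 1.14%. In SREBF2 it lay at positions -133 to -125 from the start. In ACSL1 it lay at -242 to -234 from a start that lies inside the gene, where the strand opposite to that of the gene reads TCACCCCAC. The ACSL1 window is not printed because it lies within the gene. A match is a description of letters, and the lack of one says only that these letters are not in the window. The windows of SREBF2, which holds both TCACNCCAC and CCAAT, and of 4 sterol-arm genes are shown. These 4 had the largest rises in KOd spheres among those whose window holds CCAAT, and were chosen after their values were seen. Each runs 5′ to 3′ toward the start, and capitals mark TCACNCCAC or CCAAT, which reads ATTGG where the box is on the other strand.
SREBF2 (chr22:41832855-41833104, plus strand): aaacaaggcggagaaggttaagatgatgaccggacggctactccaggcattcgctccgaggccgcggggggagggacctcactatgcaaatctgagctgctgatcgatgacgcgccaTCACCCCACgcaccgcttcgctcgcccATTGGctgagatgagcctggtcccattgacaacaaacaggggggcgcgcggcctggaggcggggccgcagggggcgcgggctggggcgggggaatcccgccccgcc
HMGCS1 (chr5:43313413-43313662, minus strand): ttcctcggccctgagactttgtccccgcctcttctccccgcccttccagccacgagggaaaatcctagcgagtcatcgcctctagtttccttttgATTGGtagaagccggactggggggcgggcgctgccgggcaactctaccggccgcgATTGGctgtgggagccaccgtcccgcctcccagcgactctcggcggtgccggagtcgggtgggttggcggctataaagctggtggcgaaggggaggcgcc
TM7SF2 (chr11:65111622-65111871, plus strand): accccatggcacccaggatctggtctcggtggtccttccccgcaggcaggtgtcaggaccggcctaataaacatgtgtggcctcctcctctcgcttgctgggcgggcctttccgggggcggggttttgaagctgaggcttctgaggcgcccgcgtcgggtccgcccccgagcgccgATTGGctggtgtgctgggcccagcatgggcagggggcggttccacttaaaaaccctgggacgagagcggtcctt
INSIG1 (chr7:155297628-155297877, plus strand): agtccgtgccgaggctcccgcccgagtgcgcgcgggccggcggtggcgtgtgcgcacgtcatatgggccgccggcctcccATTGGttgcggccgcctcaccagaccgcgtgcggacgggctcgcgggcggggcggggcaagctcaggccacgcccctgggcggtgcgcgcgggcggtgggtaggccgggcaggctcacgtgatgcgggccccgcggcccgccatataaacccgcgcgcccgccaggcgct
LSS (chr21:46228775-46229024, minus strand): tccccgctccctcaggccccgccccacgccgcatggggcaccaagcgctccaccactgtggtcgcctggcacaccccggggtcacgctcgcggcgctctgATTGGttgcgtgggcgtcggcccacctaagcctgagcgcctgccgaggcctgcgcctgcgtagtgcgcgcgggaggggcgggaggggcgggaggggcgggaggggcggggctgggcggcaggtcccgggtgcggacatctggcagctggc
The 4 sterol-arm windows were picked for holding CCAAT, so its presence in them is not a result. In all 5 windows the box is read on the opposite strand, and HMGCS1 holds 2.

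The first comparison asks what the sphere medium does to cells that stay adherent. In wt in tumorsphere medium against wt 2D, 8 of 20 sterol-arm genes rose and 1 fell. Of 13 fatty acid genes 5 rose and 0 fell (0 also by adjusted p in DESeq2 and unadjusted p in edgeR, both under 0.05). Of all genes tested 15.6% rose and 16.4% fell. The median log2 fold change was 1.12 over the sterol arm and 0.39 over the fatty acid arm, against 0.00 over all genes. In the sterol arm 19 of 20 genes had a positive value. DESeq2 called 7 sterol-arm genes risen and 1 fallen. CYP51A1, the lanosterol demethylase, went from 100.4, 94.9 and 108 CPM to 232 and 267 (log2 fold change 1.30 ± 0.29, adjusted p = 0.00252). NSDHL, a dehydrogenase that removes carbon from the C4 position of sterols, went from 49.4, 47.0 and 41.0 to 68.4 and 72.0 CPM (log2 fold change 0.62 ± 0.17, adjusted p = 0.00908). PMVK, phosphomevalonate kinase, fell from 29.6, 32.1 and 32.8 to 24.2 and 23.7 CPM (log2 fold change -0.40 ± 0.11, adjusted p = 0.00785). The groups did not overlap for any of these 3 genes.

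Other sterol genes that rose with the medium were DHCR7, which makes cholesterol from its last precursor in one branch (1.59 ± 0.43), MVD (1.59 ± 0.45) and MVK (1.13 ± 0.38) of the mevalonate steps, FDFT1, squalene synthase (1.56 ± 0.44), SQLE, squalene epoxidase (1.18 ± 0.39), and HMGCS1, which makes HMG-CoA. HMGCS1 (Entrez 3157) had the largest change, from 86.7, 84.0 and 121 CPM in wt 2D to 370.2 and 439 (4.17-fold, log2 fold change 2.06 ± 0.66, adjusted p = 0.0227). DHCR7 stood at 122, 125 and 132 CPM in wt 2D and 357 and 404 in the sphere medium, which is the highest level of any group for this gene.

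In the fatty acid arm, ACSL4, an acyl-CoA synthetase that favours arachidonic acid, went from 195, 181 and 182 to 583 and 595 CPM (log2 fold change 1.66 ± 0.15, adjusted p = 2.83e-07). FASN, fatty acid synthase, went from 464, 601 and 602 to 1267 and 1411 CPM (log2 fold change 1.27 ± 0.34, adjusted p = 0.00781). ACSL1, another acyl-CoA synthetase, went from 222, 203 and 181 to 369 and 403 CPM (log2 fold change 0.93 ± 0.25, adjusted p = 0.00787). None of these groups overlapped. ACSS2, which makes acetyl-CoA from acetate, rose by 1.49 ± 0.45 (adjusted p = 0.0170) and the desaturase gene FADS1 by 0.73 ± 0.27 (adjusted p = 0.0499). With the 3 libraries left out, 18 sterol-arm genes rose and 1 fell and 9 fatty acid genes rose and 2 fell, against 24.5% and 24.8% of all genes. No library of these 2 groups is among the 3, but the model estimates 1 spread per gene over all 7 groups. When wt in tumorsphere medium replicate B was left out, 2 of the 35 genes passed in place of 14.

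In wt spheres against wt 2D few genes of either arm passed with all libraries, and most of the sterol arm rose once the 3 libraries were left out. With all libraries, 3 of 20 sterol-arm genes rose and 1 fell, and 3 of 13 fatty acid genes rose and 2 fell, shares that lie below the 33.3% of all genes that rose and the 30.4% that fell. Without the 3 libraries, 17 sterol-arm genes rose and 1 fell and 4 fatty acid genes rose and 4 fell, where 36.1% of all genes rose and 34.4% fell. The median log2 fold change of the sterol arm was 0.48 with all libraries and 0.65 without the 3, and that of the fatty acid arm -0.22 and -0.09. The count of the 35 genes that passed, 11, was 6 without wt 2D replicate A, 5 without B, 6 without C and 6 without wt 3D replicate A.

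TM7SF2, a sterol C14 reductase, went from 1.13, 1.68 and 2.12 CPM in wt 2D to 9.63, 9.64 and 7.35 in wt 3D (log2 fold change 2.43 ± 0.75, adjusted p = 0.00919). HMGCS1 was at 358, 388 and 153 CPM in wt 3D (log2 fold change 1.63 ± 0.61, adjusted p = 0.0260, and 1.94 without the 3 libraries). SQLE rose from 110.4, 113 and 124 to 247, 254 and 142 CPM (log2 fold change 0.89 ± 0.36, adjusted p = 0.0374). These 3 genes did not overlap between wt 2D and wt 3D even with replicate C. EBP, a sterol isomerase, fell from 93.1, 86.0 and 105 to 59.7, 59.7 and 40.9 CPM (log2 fold change -0.83 ± 0.23, adjusted p = 0.00519), in contrast to these 3.

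Among the fatty acid genes, ACSL1 fell from the wt 2D level given above to 102, 109 and 98.6 CPM in wt 3D (log2 fold change -0.97 ± 0.23, adjusted p = 0.00121). ACLY, which makes cytosolic acetyl-CoA from citrate, fell from 615, 579 and 635 to 462, 448 and 337 CPM (log2 fold change -0.55 ± 0.15, adjusted p = 0.00420). FADS2, the desaturase at the entry to polyunsaturated fatty acids, rose from 22.9, 21.8 and 27.8 to 40.5, 38.8 and 41.0 CPM (log2 fold change 0.73 ± 0.21, adjusted p = 0.00585). The groups were separate for each, and replicate C of wt 3D did not stand apart for FADS2. ACSS2 (1.00 ± 0.41) and ACSL4 (0.37 ± 0.13) also rose. FASN was at 579, 485 and 372 CPM in wt 3D and did not pass (-0.22 ± 0.31, adjusted p = 0.553).

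Setting wt spheres against wt cells adherent in the same medium leaves out the change of medium as the labels give it, though RNA kit and time in that medium still differed or are not given. Here 5 of 20 sterol-arm genes fell and 1 rose, and 6 of 13 fatty acid genes fell and 1 rose, where 30.0% of all genes fell and 32.8% rose. Without the 3 libraries, 10 sterol-arm genes fell and 4 rose and 9 fatty acid genes fell and 1 rose, against 34.3% and 36.4% of all genes. Medians over the arms were -0.54 and -0.51 with all libraries. DHCR7 fell to 176, 162 and 108 CPM (log2 fold change -1.35 ± 0.43, adjusted p = 0.0112), EBP from 108 and 124 CPM in wt in tumorsphere medium (log2 fold change -1.12 ± 0.26, adjusted p = 0.00104) and NSDHL to 40.8, 39.4 and 33.1 CPM (log2 fold change -0.89 ± 0.17, adjusted p = 1.64e-04). FDFT1 (-1.09 ± 0.44) and CYP51A1 (-0.77 ± 0.29) also fell, and PMVK rose (0.31 ± 0.11).

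Of the fatty acid genes, ACSL1 fell by 1.90 on the log2 scale (SE 0.25, adjusted p = 3.87e-06), ACSL4 by 1.29 (SE 0.15, adjusted p = 8.23e-07) from the medium's level to 209, 216 and 296 CPM, and ACLY by 0.94 (SE 0.17, adjusted p = 1.08e-04) from 785 and 809 CPM. FASN (-1.48 ± 0.34), ME1, malic enzyme (-0.52 ± 0.16) and ACACA, an acetyl-CoA carboxylase (-0.51 ± 0.18) fell as well. FADS2 rose (log2 fold change 1.16 ± 0.25, adjusted p = 5.16e-04), from 17.6 and 18.3 CPM in the adherent cells. In the sterol arm HMGCS1, SQLE, MSMO1, HSD17B7, STARD4 and SC5D had wt 3D values that overlapped those of the adherent cells. For STARD4 and SC5D, replicates A and B of wt 3D lay above the adherent cells and replicate C below. Leaving out wt in tumorsphere medium replicate B left 7 genes of the 35 in place of 13.

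Most sterol-arm genes rose in KOd spheres. Against KOd 2D, 16 of 20 sterol-arm genes rose and 0 fell (0 also at an unadjusted p under 0.05 in edgeR). DESeq2 called 13 sterol-arm genes risen and 0 fallen at an adjusted p under 0.05. It gave no adjusted p for HMGCS1 and INSIG1. Of 13 fatty acid genes 6 rose and 2 fell, where 35.2% of all genes rose and 31.2% fell. With the 3 libraries left out, 18 sterol-arm genes and 8 fatty acid genes rose and 2 fatty acid genes fell, against 38.7% and 35.6%. The sterol arm had a median log2 fold change of 1.16, against 0.07 over all genes. HMGCS1 went from 26.4, 22.4 and 20.4 CPM in KOd 2D to 254, 261 and 125 in KOd 3D (9.25-fold, log2 fold change 3.21 ± 0.65, adjusted p = 3.09e-04). LSS, lanosterol synthase, went from 67.4, 62.5 and 54.7 to 289, 265 and 191 CPM (log2 fold change 2.01 ± 0.39, adjusted p = 1.90e-04). NSDHL went from 35.8, 32.0 and 28.0 to 65.2, 70.5 and 54.2 CPM (log2 fold change 0.99 ± 0.15, adjusted p = 2.04e-05). No KOd sphere library overlapped the adherent ones for these genes, replicate C included.

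INSIG1 rose by 2.54 ± 0.68 (adjusted p = 0.00324), STARD4 by 1.23 ± 0.37 (adjusted p = 0.00668) and TM7SF2 by 3.06 ± 0.79 (adjusted p = 0.00251). The other sterol genes that rose were MSMO1, SQLE, IDI1, MVD, FDFT1, MVK, DHCR7, HSD17B7, SC5D and CYP51A1, with log2 fold changes from 0.65 (CYP51A1) to 1.89 (MSMO1). FDPS (0.45), ACAT2 (0.53), PMVK (0.05) and EBP (-0.08) did not pass. DHCR7 was the gene with a DESeq2 value that did not pass there.

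ACSL4 rose in KOd spheres from 168, 148 and 166 to 412, 405 and 581 CPM (log2 fold change 1.54 ± 0.14, adjusted p = 2.86e-08). ACACB, the mitochondrial acetyl-CoA carboxylase whose product restrains fatty acid oxidation, rose from 5.59, 3.66 and 2.69 to 21.0, 18.6 and 10.3 CPM (log2 fold change 2.06 ± 0.29, adjusted p = 6.71e-06). ELOVL6, the elongase of saturated C16 chains, rose from 52.3, 45.9 and 47.9 to 74.2, 80.0 and 63.0 CPM (log2 fold change 0.57 ± 0.12, adjusted p = 5.89e-04). All of these groups were separate, and for ACACB replicate C was the lowest sphere library. FASN (1.33 ± 0.31), ACSS2 (1.24 ± 0.41) and FADS2 (0.79 ± 0.22) also rose, and ACSL1 (-0.69 ± 0.22) and ACSL3 (-0.50 ± 0.15) fell.

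In labelled KOs the result turned on 1 adherent library. With all libraries, 1 of 20 sterol-arm genes rose in spheres and 2 fell, and 3 of 13 fatty acid genes rose and 3 fell, where 32.9% of all genes rose and 32.1% fell. Without the 3 libraries 17 sterol-arm genes rose and 2 fell and 10 fatty acid genes rose and 2 fell, against 40.2% and 35.6%. Leaving out labelled KOs 2D replicate A alone moved the count of the 35 genes from 11 to 32. PMVK fell from 45.3, 47.0 and 56.2 to 30.5, 25.8 and 30.3 CPM (log2 fold change -0.78 ± 0.09, adjusted p = 1.22e-06), and EBP from 269.6, 126 and 156 to 87.6, 86.9 and 93.3 CPM (log2 fold change -1.04 ± 0.23, adjusted p = 8.03e-04). STARD4 rose (log2 fold change 1.55 ± 0.37, adjusted p = 0.00138), with every labelled KOs sphere library above every adherent one. INSIG1 differed by 0.63 ± 0.64 with all libraries (adjusted p = 0.398) and by 3.00 without the 3 (adjusted p = 6.58e-14).

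ACSL4 in labelled KOs rose from 222, 223 and 194 to 534, 519 and 491 CPM (log2 fold change 1.27 ± 0.14, adjusted p = 3.95e-07). FADS2 rose from 11.9, 4.99 and 5.82 to 16.7, 15.8 and 16.2 CPM (log2 fold change 1.10 ± 0.22, adjusted p = 2.88e-04). ACSL3, an acyl-CoA synthetase of lipid droplets, fell from 274, 182 and 146 to 128, 127 and 118 CPM (log2 fold change -0.69 ± 0.15, adjusted p = 5.91e-04). These calls held without the 3 libraries, at log2 fold changes of 1.31, 1.59 and -0.39. FADS1 rose (1.09 ± 0.25) and ACLY fell (-0.68 ± 0.15) in both fits. ME1 fell with all libraries (-0.36 ± 0.15), with groups that overlapped, and not without the 3 (-0.11). SCD, stearoyl-CoA desaturase, was at 1558, 357 and 173 CPM in labelled KOs 2D and 933, 929 and 893 in labelled KOs 3D, a difference that passed only without the 3 libraries (1.80, adjusted p = 2.92e-08, against 0.40 and 0.452).

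**Figure D4:**
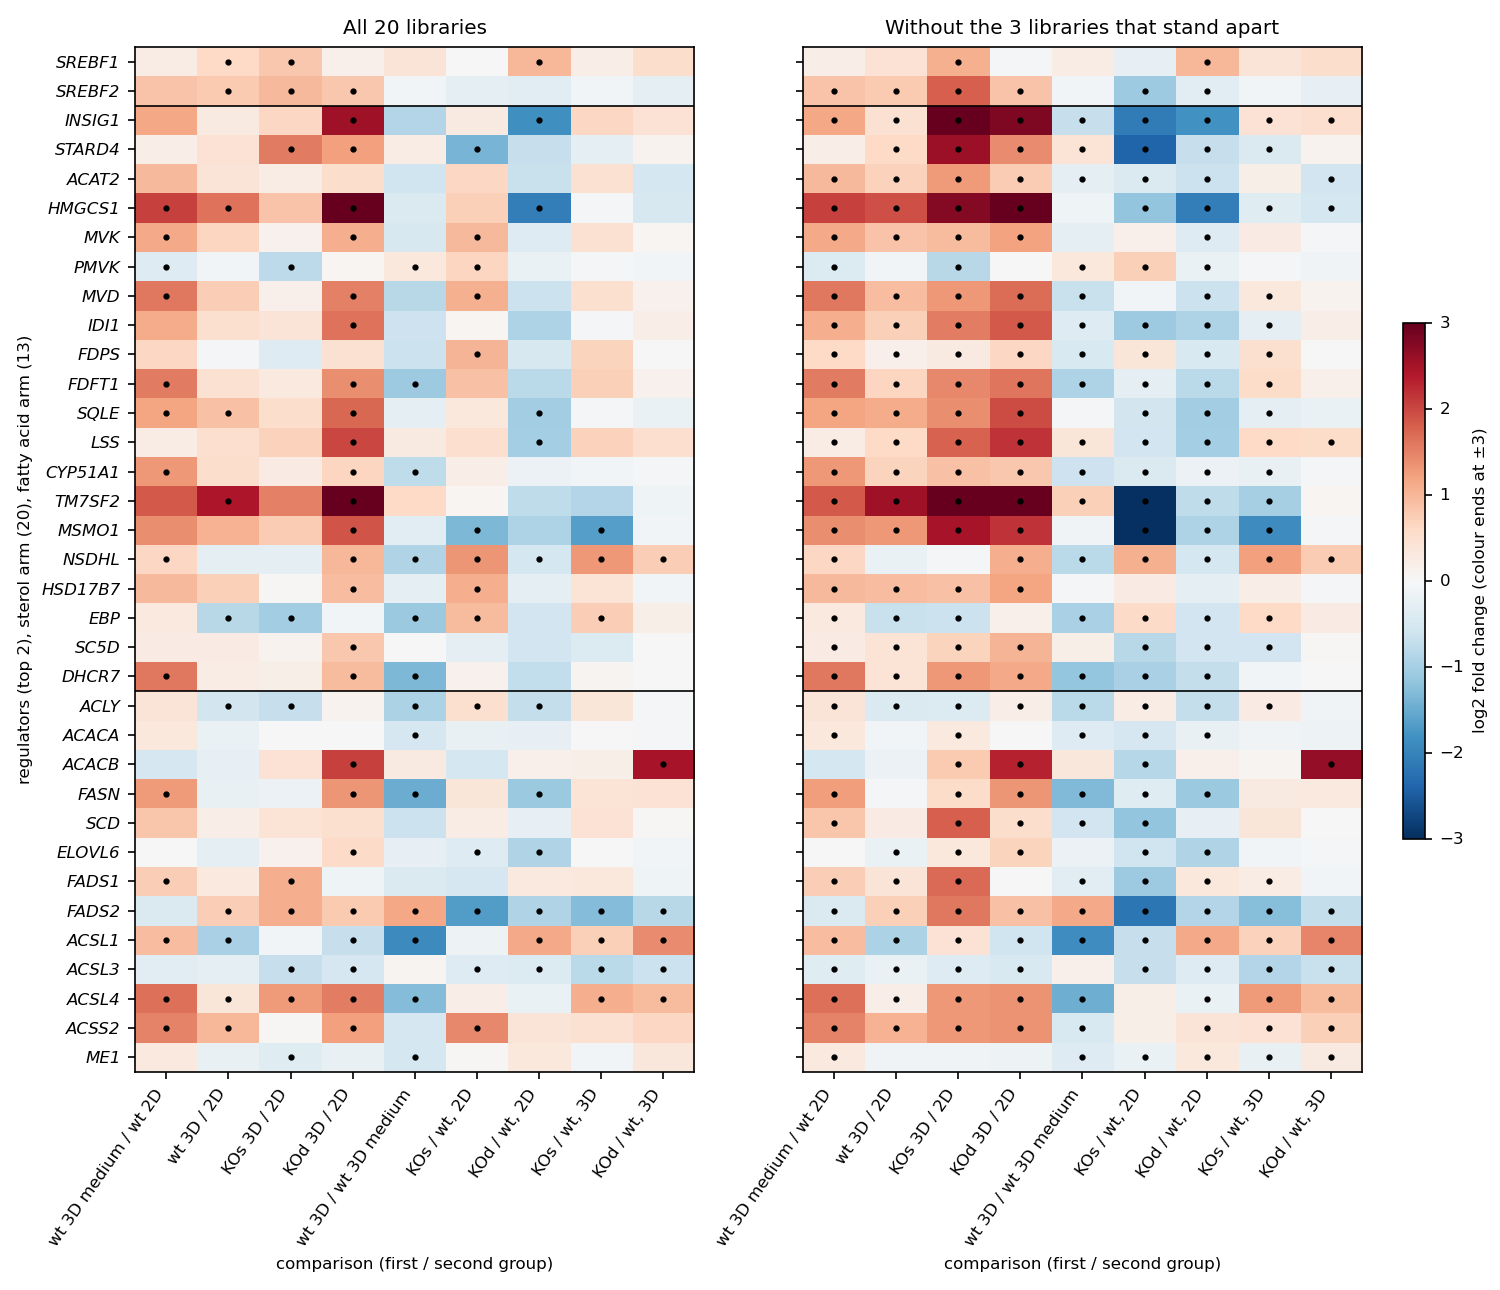
Log2 fold change of the 35 genes (rows) in 9 comparisons (columns), with all 20 libraries (left) and without the 3 that stood apart (right). Red is higher and blue lower in the group named first, colours end at 3 in either direction, dots mark an adjusted p under 0.05, and lines divide regulators, sterol arm and fatty acid arm, and "3D medium" stands for wt in tumorsphere medium. The columns that hold labelled KOs 2D change most between the panels. The column of KOd against wt in 2D keeps its colours and gains dots.

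Between genotypes in 2D, KOd lay below wt. Of 20 sterol-arm genes 5 fell and 0 rose (0 also by adjusted p in DESeq2 and unadjusted p in edgeR, both under 0.05). Of the fatty acid arm 5 of 13 fell and 1 rose, where 22.5% of all genes fell and 22.1% rose. All 20 sterol-arm values were negative, with a median of -0.68 against 0.01 over all genes. In the fit without those 3 libraries, none of which is in these groups, 19 sterol-arm and 7 fatty acid genes fell and 4 fatty acid genes rose, against 29.8% and 29.9% of all genes. Without KOd 2D replicate C, 7 of the 35 genes passed in place of 12. Scaled by library totals alone, which raised the median of all genes by 0.11, SQLE, LSS, NSDHL and ACSL3 no longer passed. HMGCS1 fell by 2.07 on the log2 scale (SE 0.63, adjusted p = 0.0115), with every KOd 2D library below every wt 2D library. SQLE was at 61.1, 49.4 and 57.4 CPM in KOd 2D (log2 fold change -1.05 ± 0.36, adjusted p = 0.0247), and NSDHL fell by 0.52 (SE 0.15, adjusted p = 0.00994). INSIG1 (-1.83 ± 0.67) and LSS (-1.02 ± 0.38) fell too.

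The fatty acid genes of KOd 2D went in both directions. ELOVL6 fell from 90.4, 88.3 and 96.0 CPM in wt 2D (log2 fold change -0.91 ± 0.12, adjusted p = 1.27e-05), and ACLY fell to 398, 361 and 351 CPM (log2 fold change -0.72 ± 0.15, adjusted p = 9.07e-04). ACSL1 rose to 438, 441 and 448 CPM (log2 fold change 1.13 ± 0.23, adjusted p = 5.48e-04), the highest level of any group. FASN, at 303, 251 and 214 CPM (-1.12 ± 0.31), FADS2 (-0.89 ± 0.22) and ACSL3 (-0.40 ± 0.15) fell, and SCD did not pass (-0.26 ± 0.45, adjusted p = 0.683).

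Labelled KOs against wt in 2D changed direction with 1 library. With all libraries 7 of 20 sterol-arm genes rose and 2 fell, and 2 of 13 fatty acid genes rose and 3 fell, where 27.7% of all genes rose and 25.5% fell. Once the 3 libraries were left out, 4 sterol-arm genes rose and 13 fell and 1 fatty acid gene rose and 10 fell, against 31.8% and 31.9%, and 14 of the 35 genes turned sign. MVD was the gene called risen that turned, from 1.08 to -0.07. Leaving out labelled KOs 2D replicate A alone gave 23 genes passed in place of 14, and leaving out wt 2D replicate A gave 9. NSDHL was at 150.1, 90.7 and 103 CPM in labelled KOs 2D (log2 fold change 1.32 ± 0.15, adjusted p = 1.48e-06), PMVK rose (log2 fold change 0.65 ± 0.09, adjusted p = 1.47e-05) and EBP rose (log2 fold change 0.96 ± 0.23, adjusted p = 0.00221), and all 3 held without the 3 libraries (1.08, 0.71 and 0.57). The other genes called risen were MVK (0.97 ± 0.34), FDPS (1.02 ± 0.28) and HSD17B7 (1.08 ± 0.38), of which FDPS alone passed without the 3 (0.36). STARD4 fell by 1.39 (SE 0.37, adjusted p = 0.00436), and MSMO1, the C4-methylsterol oxidase, fell by 1.35 (SE 0.54, adjusted p = 0.0451). MSMO1 was at 79.5, 75.5 and 93.1 CPM in wt 2D and 77.2, 9.56 and 10.3 in labelled KOs 2D, so that replicates B and C were far below wt while replicate A lay among its values, and the call on MSMO1 was lost when libraries were scaled by their totals alone.

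In the fatty acid arm FADS2 fell by 1.67 in labelled KOs 2D (SE 0.22, adjusted p = 6.86e-06), and without the 3 libraries by 2.16, with all 3 libraries below all of wt. ACSS2 was at 36.1, 33.6 and 36.7 CPM in wt 2D and 208, 42.9 and 37.1 in labelled KOs 2D (log2 fold change 1.44 ± 0.42, adjusted p = 0.00756), a rise that rests on replicate A (0.17 without the 3, adjusted p = 0.0930). ELOVL6 fell to 86.5, 58.0 and 63.9 CPM (log2 fold change -0.40 ± 0.12, adjusted p = 0.0116). ACLY rose (0.48 ± 0.15) and ACSL3 fell (-0.39 ± 0.15) in both fits.

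In spheres few sterol-arm genes differed between KOd and wt. Against wt 3D, 1 of 20 sterol-arm genes rose in KOd 3D and 0 fell. That 0 held by adjusted p in DESeq2 and unadjusted p in edgeR, both under 0.05. Of 13 fatty acid genes 3 rose and 2 fell, where 16.5% of all genes rose and 17.5% fell. The median over the sterol arm was 0.00, as over all genes. Libraries of wt 3D and KOd 3D with the same letter deviated alike, with replicate C apart in both groups. Whether A and B pair by letter was not tested apart from that. With the replicate letter as a block in a fit of these 2 groups alone, 11 of the 35 genes rose and 5 fell. There 2980 of 15274 genes rose and 2860 fell. In that blocked fit INSIG1 (0.42), IDI1 (0.23) and LSS (0.49) joined NSDHL among those that rose and HMGCS1 (-0.44) and ACAT2 (-0.47) fell, while SREBF1 rose (0.54) and SREBF2 fell (-0.29). Leaving the 3 libraries out, and without a block, 3 sterol-arm genes rose and 2 fell, against 21.9% and 23.4% of all genes. NSDHL rose in every one of these fits (0.75 ± 0.15, adjusted p = 9.15e-04 with all libraries, and 0.75, adjusted p = 3.98e-04, with the block). LSS was at 199.5, 179 and 151 CPM in wt 3D and ACAT2, cytosolic acetoacetyl-CoA thiolase, at 103, 109 and 47.7 CPM in wt 3D and 66.7, 75.6 and 38.9 in KOd 3D, where replicate C was the lowest of each group.

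Of the fatty acid genes, 5 of the 13 differed between KOd and wt spheres with all libraries, and 5 rose and 2 fell with the 3 left out. ACACB was at 3.07, 3.33 and 2.65 CPM in wt 3D, below every KOd 3D library (log2 fold change 2.46 ± 0.30, adjusted p = 4.05e-06). ACSL4 rose (log2 fold change 0.96 ± 0.14, adjusted p = 2.65e-05), and ACSL1 was at 289, 295 and 239 CPM, above every wt 3D library (log2 fold change 1.41 ± 0.23, adjusted p = 1.11e-04). ACSL3 fell by 0.63 (SE 0.15) and FADS2 by 0.83 (SE 0.21). With the block the log2 fold changes of these 5 genes were 2.43, 0.96, 1.42, -0.62 and -0.83, and ACSS2 (0.64), FASN (0.45) and ME1 (0.35) rose as well.

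Labelled KOs spheres differed from wt spheres in both directions. Here 2 of 20 sterol-arm genes rose and 1 fell, and 2 of 13 fatty acid genes rose and 2 fell, where 27.8% of all genes rose and 28.5% fell. In the fit without those 3 libraries, 7 sterol-arm genes rose and 8 fell and 5 fatty acid genes rose and 3 fell, against 33.5% and 31.4%. NSDHL was at 92.4, 95.2 and 93.0 CPM in labelled KOs 3D (log2 fold change 1.31 ± 0.15, adjusted p = 1.13e-06), EBP rose (log2 fold change 0.74 ± 0.23, adjusted p = 0.0120), and MSMO1 fell from 192, 215 and 105 to 53.9, 58.3 and 52.0 CPM (log2 fold change -1.64 ± 0.54, adjusted p = 0.0158). NSDHL and EBP were above wt, and MSMO1 below it, in every labelled KOs sphere library. ACSL4 rose (log2 fold change 1.10 ± 0.14, adjusted p = 2.20e-06), FADS2 fell (log2 fold change -1.30 ± 0.21, adjusted p = 5.03e-05), ACSL3 fell (log2 fold change -0.82 ± 0.15, adjusted p = 1.53e-04) and ACSL1 rose to 171, 171 and 169 CPM (log2 fold change 0.72 ± 0.23, adjusted p = 0.0113). FADS2 and ACSL3 were thus lower than in wt in both pools and both cultures by the tests above, in comparisons that share the wt libraries of each culture, with ACSL3 of labelled KOs 2D replicate A overlapping wt.

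**Figure D5:**
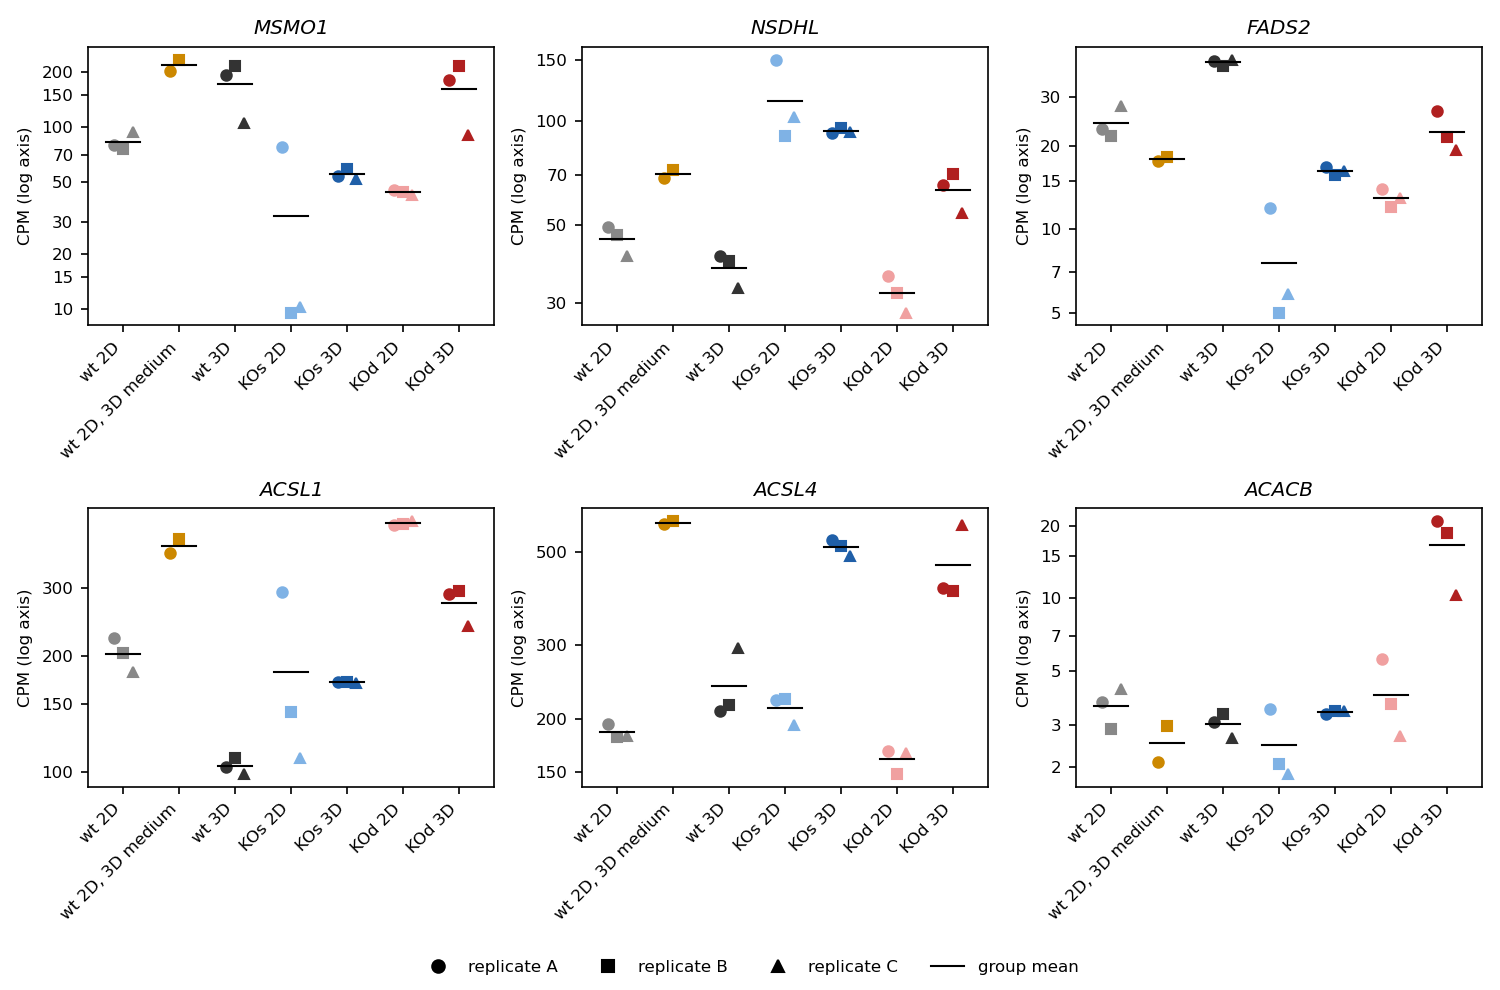
CPM in each library, on log axes, of 6 genes whose order of groups differed from that of their arm. Symbols mark replicates A to C and lines the group means. MSMO1 is lowest in replicates B and C of labelled KOs 2D, NSDHL is highest in labelled KOs, FADS2 is highest in wt 3D, ACSL1 is highest in KOd 2D and lowest in wt 3D, ACSL4 is high in wt in tumorsphere medium and in spheres of both pools, and ACACB is high in KOd 3D alone.

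The pools were also set against each other. In 2D, 13 of 20 sterol-arm genes were lower in KOd than in labelled KOs and 0 higher with all libraries. That 0 held by adjusted p in DESeq2 and unadjusted p in edgeR, both under 0.05. Of 13 fatty acid genes 5 were lower and 3 higher, where 30.7% of all genes fell and 28.8% rose. Once the 3 libraries were left out, the sterol arm had 11 lower and 7 higher, the fatty acid arm 4 lower and 9 higher, against 34.0% and 35.9%, and 11 of the 35 genes turned sign. INSIG1 turned from -2.09 to 0.27 and ACSS2 from -1.04 to 0.22. NSDHL (-1.84 ± 0.16, adjusted p = 1.92e-08), PMVK (-0.86 ± 0.09, adjusted p = 3.85e-07) and EBP (-1.53 ± 0.24, adjusted p = 2.45e-05) fell in both fits, with EBP at 66.8, 64.1 and 60.8 CPM and PMVK at 27.8, 27.9 and 26.2 CPM in KOd 2D. ACLY (-1.20 ± 0.15) and FASN (-1.48 ± 0.31) fell and ACSL1 rose (1.28 ± 0.23), also in both fits.

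In spheres, 1 of 20 sterol-arm genes was higher and 1 lower in KOd than in labelled KOs, and 3 of 13 fatty acid genes were higher and 1 lower, where 23.9% of all genes rose and 23.3% fell. Leaving the 3 libraries out, 6 sterol-arm genes were higher and 6 lower and 6 fatty acid genes higher and 3 lower, against 29.4% and 31.3%. MSMO1 was at 180.1, 216 and 89.5 CPM in KOd 3D (log2 fold change 1.56 ± 0.54, adjusted p = 0.0244) and NSDHL was lower than in labelled KOs (log2 fold change -0.56 ± 0.15, adjusted p = 0.00495). ACACB was at 3.33, 3.40 and 3.40 CPM in labelled KOs 3D, below every KOd 3D library (log2 fold change 2.30 ± 0.29, adjusted p = 4.93e-06). ACSL1 was higher (0.69 ± 0.23), as was ME1, at 90.6, 95.9 and 88.8 CPM in labelled KOs 3D and 123, 133 and 110.4 in KOd 3D (0.41 ± 0.15), and ACLY was lower (-0.41 ± 0.15). ME1 and ACLY did not pass when libraries were scaled by their totals alone. The 6 genes passed were 3 without labelled KOs 3D replicate A, 3 without its C, 2 without KOd 3D replicate A and 3 without its B.

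Whether a pool answered the change of culture differently from wt was tested as an interaction, the log2 fold change of spheres over 2D in the pool minus that in wt. For KOd, 2 of 20 sterol-arm genes and 5 of 13 fatty acid genes had a larger value than wt and 0 a smaller one. That 0 held by adjusted p in DESeq2 and unadjusted p in edgeR, both under 0.05. Of all genes 14.4% were larger and 14.7% smaller. All 20 sterol-arm values were positive, with a median of 0.76 against 0.01 over all genes. In the fit without those 3 libraries, 14 sterol-arm genes and 7 fatty acid genes were larger and 1 fatty acid gene smaller, against 20.7% and 21.3%. NSDHL (1.26 ± 0.22, adjusted p = 2.84e-04) and LSS (1.51 ± 0.53, adjusted p = 0.0397) passed. INSIG1 (2.27 ± 0.92, adjusted p = 0.0727) did not pass with all libraries. It passed without the 3 (adjusted p = 1.08e-09), in the fit whose spread is lowered by that choice. In the fatty acid arm ACACB (2.32 ± 0.41), ACSL4 (1.16 ± 0.19), ELOVL6 (0.84 ± 0.17), FASN (1.54 ± 0.43) and ACLY (0.67 ± 0.22) passed. The KOd interaction uses the same wt libraries as the KOd comparisons within each culture, so these are not separate evidence.

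For labelled KOs the interaction passed for PMVK, which was smaller (-0.69 ± 0.13, adjusted p = 5.59e-04), and for ACSL4 (0.90 ± 0.19, adjusted p = 0.00133) and ACSL1 (0.88 ± 0.32, adjusted p = 0.0387), which were larger. No sterol-arm gene was larger (1 by unadjusted p in edgeR and 0 by adjusted p in DESeq2, both under 0.05). Of all genes 17.9% were larger and 19.0% smaller. Once the 3 libraries were left out, 11 sterol-arm genes and 9 fatty acid genes were larger and 1 sterol-arm gene smaller, against 24.3% and 21.8%, and 17 of the 35 genes turned sign. Without labelled KOs 2D replicate A alone, 19 of the 35 passed in place of 3.

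Genes near these pathways were followed in lists kept apart from the 35. Of 9 genes of SREBP processing, the site-1 protease gene MBTPS1 rose in spheres of wt (0.50 ± 0.09) and of KOd (0.95 ± 0.09) and was lower in KOd 2D than in wt 2D (-0.37 ± 0.09). SPRING1, which acts with that protease, was also lower in KOd 2D (-0.69 ± 0.10), and these were the 2 of the 9 that fell there, where 22.5% of all genes fell. With the 3 libraries left out 4 of the 9 fell and 2 rose, where 29.8% of all genes fell. RNF139, a ubiquitin ligase of the SREBP system, was lower in labelled KOs than in wt in 2D (-0.73 ± 0.09) and 3D (-1.45 ± 0.09). Among genes of late sterol steps and esterification, LBR, the lamin B receptor and a sterol reductase (0.499 of its wt level), and SOAT1, which esterifies cholesterol (-0.34 ± 0.09), fell in KOd 2D against wt 2D.

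The isoprenoid branch uses the same precursors. Of its 9 genes, 1 rose and 3 fell in wt spheres (30.4% of all genes fell), 7 fell in labelled KOs spheres (32.1%) and 6 fell in KOd spheres (31.2%). Leaving out the 3 libraries gave 4, 7 and 6 fallen, where 34.4%, 35.6% and 35.6% of all genes fell. COQ2, of ubiquinone synthesis, was at 43.2, 38.0 and 40.6 CPM in wt 2D and 15.6, 16.1 and 12.5 in wt 3D (-1.46 ± 0.10), and fell in labelled KOs (-0.67 ± 0.10) and KOd (-1.51 ± 0.10). Of 12 tested genes of other lipid synthesis, GPAM, the first enzyme of glycerolipid synthesis, fell in spheres of wt (-1.47 ± 0.13), labelled KOs (-2.45 ± 0.13) and KOd (-2.67 ± 0.13). MLXIPL, which encodes the carbohydrate-response factor ChREBP, was at 0.366, 0.261 and 0 CPM in wt 2D and 8.75, 10.4 and 5.69 in KOd 2D (5.26 ± 0.60).

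Liver X receptors (LXR) sense oxidised sterols, and their target genes export cholesterol. Of 6 genes of LXR and its targets, 3 rose in KOd 2D against wt 2D in either fit, where 22.1% of all genes rose with all libraries and 29.9% with the 3 left out. ABCA1, a cholesterol exporter shown here because of its values, was at 13.5, 12.8 and 11.7 CPM in wt 2D, 9.58, 56.3 and 7.89 in labelled KOs 2D and 64.6, 63.8 and 95.3 in KOd 2D (2.56 ± 0.59 for KOd against wt). In spheres it was at 20.5, 20.6 and 52.4 CPM in wt, 19.7, 20.3 and 18.2 in labelled KOs and 24.5, 18.8 and 53.0 in KOd. In wt 3D and KOd 3D the replicate C with low sterol genes was the highest of its group for ABCA1, and in labelled KOs 2D replicate B was. ABCG1, another exporter, was at 3.44, 3.58 and 6.12 CPM in wt 2D and 35.4, 45.2 and 69.6 in KOd 2D (3.52 ± 0.71). NR1H3, which encodes LXR alpha, rose in KOd 2D (1.04 ± 0.24) and in spheres of wt (1.85 ± 0.24), labelled KOs (1.51 ± 0.23) and KOd (1.25 ± 0.23).

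Some counts of the 35 genes can hold reads of neighbours. FADS1 and FADS2 overlap each other, and MVK overlaps MMAB, ACAT2 overlaps TCP1 and SOD2, and STARD4, CYP51A1, FDPS and IDI1 overlap genes on the other strand, while the strand setting of the counting is not given in the sources used here. SREBF1 overlaps RAI1, ACACA overlaps C17orf78 and ACSL1 overlaps SLED1, and small RNA genes lie within SREBF1, SREBF2, LSS, ACACA, FASN and FADS1. FDPS and HSD17B7 have counted pseudogenes (FDPSP2 and HSD17B7P2) that can share reads. Values of all these genes are uncertain to that extent.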

How the data were processed

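RNA of 20 libraries of SUM159PT cells was sequenced. The deposited table holds whole-number read counts per Entrez gene identifier, made by the authors from reads aligned with STAR to hg38, per the submitters' processing notes. The counting tool, annotation release and strand setting are not given in the sources used here. Official symbols matched 27740 of 27864 identifiers. Samples were grouped by the labels' genotype and culture.

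Counts were fitted for all groups together in edgeR 4.0.16 (R 4.3.3) with TMM scaling, filterByExpr (16323 genes, 58.6% of the identifiers) and a quasi-likelihood test with 13 residual degrees of freedom. Adjusted p is by the Benjamini-Hochberg method over all genes tested, two-sided, with 0.05 as the threshold, and "rose" or "fell" is used of genes that passed it. The standard error is the size of the log2 fold change divided by the square root of the F statistic. CPM uses TMM-scaled library sizes, and CPM per kilobase the deposited gene length. The fit was tested on simulated data. Those were drawn without libraries that stand apart and without pairing of replicates, so that test does not cover either feature. Library totals allow levels down to a few reads in each library, and p-values cover the spread between libraries only.

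The 35 members, their arms and the other lists were chosen with earlier results of these data known. Per comparison, the 3 members of each arm with the smallest adjusted p, and up to 2 of each other list, are named with values. Other members that passed are named by log2 fold change, and further values were picked after they were seen. The rule for printing promoters (members of either arm with TCACNCCAC) gave ACSL1 alone, so the 5 windows shown are a choice made afterwards.

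Replicate letters were checked for pairing by correlating deviations from group means over genes. Only libraries with the same letter were correlated. Between wt 3D and KOd 3D, r was from 0.21 to 0.342 over 3 pairs. No other groups had every pair above 0.1. Deviations within a group sum to 0, and replicate C stood apart in both of these groups. The pairs of A and of B can thus turn positive through C alone. The check cannot tell pairing by letter from a shift shared by the replicates C, and the labels give no pairing.

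Alternatives were RLE scaling, library totals alone, no filter, a filter at 1 CPM in 3 libraries or more, limma-voom (limma 3.58.1), DESeq2 1.42.0, the groups compared alone, the replicate letter as block, an adjusted p under 0.01, each replicate left out, and the 3 libraries that stood apart left out. The block in wt 3D and KOd 3D alone was added after seeing the data. Some genes of these pathways are not reported here.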

Additional observations from a re-analysis of the deposited data

Results flagged for a closer look

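The change from 2D to spheres differed between a pool and wt in 10 tests, each of the difference itself (edgeR interaction, 3 libraries a group). For the labelled KOs, the log2 fold change minus that of wt was -0.69 for PMVK, 0.88 for ACSL1 and 0.90 for ACSL4. For KOd it was 1.26 for NSDHL and 1.51 for LSS in the sterol arm, and 0.67 for ACLY, 2.32 for ACACB, 1.54 for FASN, 0.84 for ELOVL6 and 1.16 for ACSL4 in the fatty acid arm. All 10 kept their direction and passed with the 3 libraries that stood apart left out, a fit whose adjusted p values tend to be too small.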

How the results depend on the processing

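Counts of the 35 genes that passed moved most with the libraries used. Without the 3 libraries that stood apart they were 27 in wt spheres against wt 2D, 33 in labelled KOs spheres against their 2D, 31 in wt in tumorsphere medium against wt 2D and 24 in wt spheres against that group. Against wt they were then 29 in labelled KOs 2D, 32 in KOd 2D, 23 in labelled KOs 3D and 12 in KOd 3D, and 21 between the pools in 3D. The culture response gave 22 for either pool. In a fit of the groups compared alone the counts were 21 for wt spheres, 33 for the sphere medium, 4 for labelled KOs and 33 for KOd against wt in 2D, 16 for labelled KOs against wt in 3D, 18 between the pools in 3D and 14 for the KOd culture response. At an adjusted p under 0.01 they were 5, 7, 7, 7, 4, 2 and 4 in the same 7 comparisons, and 7 for wt spheres against the sphere medium.

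Leaving out 1 library in turn gave 5 to 10 genes for wt spheres, 10 to 32 for labelled KOs spheres, 2 to 12 for the sphere medium and 7 to 12 for wt spheres against it. Against wt the ranges were 9 to 23 in labelled KOs 2D, 7 to 9 in KOd 2D, 6 to 8 in labelled KOs 3D and 6 to 7 in KOd 3D, then 2 to 6 between the pools in 3D, 2 to 19 for the labelled KOs response and 5 to 8 for that of KOd. Leaving out 1 of the 2 libraries in tumorsphere medium assumes that the other varies like the remaining groups.

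Among single calls, 3 turned: MVD in labelled KOs 2D against wt (-0.0706 without the 3 libraries, -0.0693 to 1.43 leaving out 1), INSIG1 (0.27, and -2.59 to 0.27) and ACSS2 (0.22, and -1.43 to 0.22) in KOd against labelled KOs in 2D. The cause was not tested. Of 151 single calls, 151 held under RLE scaling and with no filter, 150 at 1 CPM in at least 3 libraries, 141 with limma-voom and 138 with library totals. In DESeq2 141 of 143 held, and the remaining calls had no adjusted p there and were not checked.

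The replicate block in the fit of all groups ended 5 calls (SREBF1 in wt spheres, FADS1 in the sphere medium, FDFT1 in wt spheres against it, MVD in labelled KOs 2D, ACSS2 between the pools in 2D) and gave 5 genes in place of 3 for the labelled KOs response, as did library totals and limma-voom. Outside wt 3D and KOd 3D the replicates share only a letter. Within these groups, pairing of A and of B was not told apart from the shift of replicate C. In those 2 groups alone the block gave 16 genes in place of 6.

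Over all genes, the sphere medium changed 5224 genes, 3224 at an adjusted p under 0.01, 7968 without the 3 libraries, and 3192 or 2752 without its replicate A or B. Culture responses went from 6012 to 3798 (labelled KOs) and from 4751 to 2822 (KOd) at 0.01. Library totals raised the share of rising calls from 50.6% to 65.5% in labelled KOs spheres, from 49.6% to 61.2% in KOd 2D, from 49.3% to 63.1% in labelled KOs 3D, from 48.5% to 70.1% in KOd 3D, from 48.4% to 59.8% between the pools in 2D and from 48.5% to 69.5% for the labelled KOs response. They moved the median of all genes in these by 0.22, 0.11, 0.16, 0.16, 0.15 and 0.22.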
